A study of Mus musculus with 6 samples.

Results

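The myelin structural genes described here are Mbp, Mobp, Mag, Mog, Cnp, Cldn11, Mal and Ugt8a, 8 genes whose products build the sheath that oligodendrocytes wrap around axons. Their probe sets were all those on 3 array designs, A, B and C, whose platform annotation named 1 of these genes and no other, which gave 21 of 36701 probe sets. Design A held 14 of them, design B 3 and design C 4, and no probe set named a member together with another gene. The rule itself uses symbols and no signal, though the genes were picked with earlier results of these data known.

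RNA came from deep cerebellar nuclei centred on the anterior interpositus nucleus, an output nucleus of the cerebellum that the learned eyeblink depends on. All mice were male C57BL/6, 11 to 18 weeks old, carried eyelid wires and a headstage, and had 3 days to recover before 7 days of training. In the paired group a 100 ms shock beside the eye began 252 ms after the onset of a 352 ms tone, and both stopped at the same moment. The unpaired group, its control, had the same tone and shock apart from each other in a pseudorandom order. Tissue was punched out with syringe needles within 10 to 30 min of sacrifice, straight after the last trial, and 10 to 15 nuclei from the side of the wired eye went into a pool. Each group had 1 array per design, 6 arrays in all, so a difference between the pools has no replicate check and no p-value. Whether a single RNA extract was split over the 3 arrays of a group is not stated. Whether less signal in a pool means fewer oligodendrocytes or less RNA in each cannot be told apart in such tissue.

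Oligodendrocytes form myelin by flattening their membrane into a spiral of tightly stacked layers that insulates the axon and speeds conduction. Mbp, the myelin basic protein, holds the inner faces of that membrane together, and Mobp is another abundant basic protein of compact myelin in the central nervous system. Mag sits on the layer next to the axon and Mog on the outermost surface, while Cnp keeps the cytoplasmic channels of the sheath open. Cldn11 seals the layers with tight junctions, Mal is a small membrane protein of lipid rafts, and Ugt8a makes galactosylceramide, a main lipid of the sheath. The deep nuclei are crossed by many myelinated fibres, among them the axons of Purkinje cells that end there.

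Sequences before the transcription start were compared for what the genes share beyond their role. The RefSeq table of assembly GRCm38.p6 held such windows for 7 of the members, Mbp apart, and 9 windows in all because Mag has 3 listed starts. The 250 bases before each start were searched on both strands for 6 motifs. Mobp and Ugt8a are printed, Mobp as the gene with the most probe sets and Ugt8a as the gene whose probe set 138069_at had the widest difference between the pools. Capitals mark ACAAAG or its reverse complement, a core bound by factors of the Sox family, in the Mobp window, which lies at chr9:120149492-120149741 on the + strand. In the Ugt8a window, at chr3:125938653-125938902 on the - strand, they mark GGGCGG, the core of GC boxes.
Mobp: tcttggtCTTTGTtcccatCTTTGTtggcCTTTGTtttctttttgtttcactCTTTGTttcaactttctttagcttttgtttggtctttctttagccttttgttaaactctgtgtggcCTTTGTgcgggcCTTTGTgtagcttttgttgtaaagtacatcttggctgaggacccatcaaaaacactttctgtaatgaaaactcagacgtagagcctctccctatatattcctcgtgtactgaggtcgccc
Ugt8a: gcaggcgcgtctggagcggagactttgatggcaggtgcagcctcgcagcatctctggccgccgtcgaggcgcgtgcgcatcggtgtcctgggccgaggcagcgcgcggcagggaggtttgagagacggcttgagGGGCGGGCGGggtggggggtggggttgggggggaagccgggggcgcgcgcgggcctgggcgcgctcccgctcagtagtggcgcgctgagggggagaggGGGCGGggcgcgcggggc

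The Mobp window held 6 matches to ACAAAG, all on the strand opposite to the gene's, and it was the only 1 of 32851 windows in the table with as many (0.00304%). In all, 16.5% of the listed windows held ACAAAG at least once, and the windows of Mobp, Mag and Cnp did, 3 of 7 members. The related ACAATG was in none of the 9 member windows and in 10.7% of all windows. Nor did a member window hold the E-box CAGCTG, found in 13% of all windows, or TATAAA, found in 12.4%.

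CTGGCAC, a form of the site of the myelin regulator Myrf, occurred in windows of Mag and Cnp, against 4.19% of all windows. The Mag matches lie in 2 windows that overlap each other. GGGCGG was in the windows of Ugt8a and Cnp and in 32.7% of all windows, with 3 matches in Ugt8a, of which 2 share bases; 8.47% of all windows had as many. GC content ran from 40.8% in Mobp to 76.8% in Ugt8a, with a median of 52.4% over all windows. A match is a description of letters, not of a factor bound there, and the arrays carry no measure of binding.

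Sheath probe sets were often among the brightest on their arrays in both pools, those of Mobp above all. Of the 21 probe sets, 15 passed the signal filter, which kept a probe set whose mean log2 signal lay at or above the median of its design. Of these 15, 12 had a rank of 90 or more in the paired pool and the same number in the unpaired pool. Mobp supplied 7 of the 12, and Mog, Cldn11 and Cnp had no probe set at that rank. Rank is the percentile of a probe set among the probe sets of its design without controls, with 100 for the brightest, and it is no measure of transcript number. The values stood for 7 of the 8 genes, since the only Cnp probe set did not pass.

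**Figure D1:**
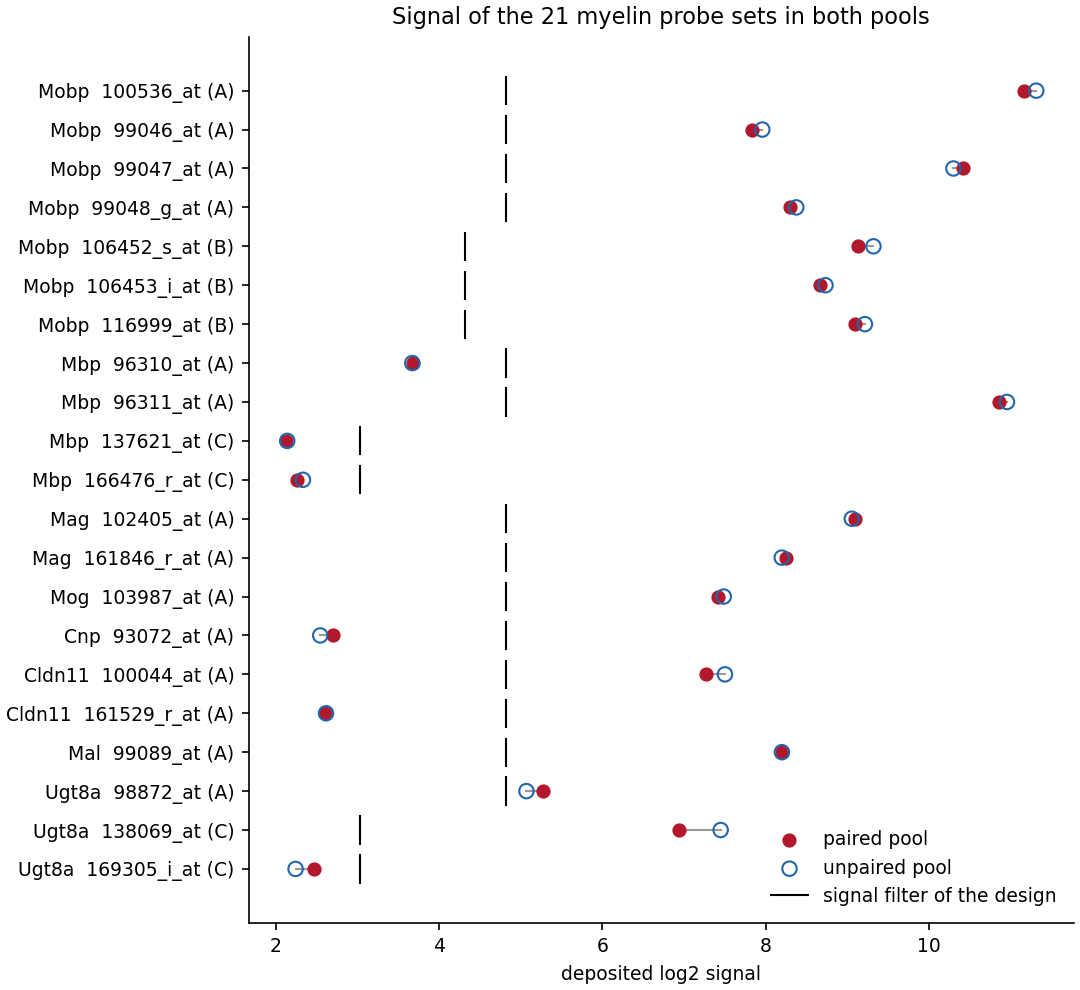
Deposited log2 signal (x axis) of the 21 myelin probe sets, named on the y axis with their design in brackets, in the paired pool (filled) and the unpaired pool (open), with the signal filter of the design as a short vertical line. The 15 probe sets right of their line nearly coincide between the pools, with the widest gap for Ugt8a 138069_at, 6.93 paired against 7.45 unpaired.

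Mobp had 7 probe sets, 4 on design A and 3 on design B, and every one passed the filter. Its brightest, 100536_at on design A, had a log2 signal of 11.17 in the paired pool and 11.32 in the unpaired pool. Only 39 of the 12422 probe sets of design A were brighter in the paired pool, and 32 in the unpaired pool. Probe set 99047_at had 10.42 in the paired and 10.30 in the unpaired pool, and was the only Mobp probe set that was higher in the paired pool.

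The remaining Mobp probe sets of design A were slightly lower in the paired pool. 99048_g_at had 8.30 against 8.38 unpaired, and 99046_at had 7.84 against 7.96. On design B, 106452_s_at had 9.13 in the paired and 9.32 in the unpaired pool. There 116999_at had 9.09 against 9.22 and 106453_i_at 8.67 against 8.74, both pairs again a little lower with paired training. After the arrays of a design were brought to a common median, the difference, paired minus unpaired, ran from -0.18 to 0.13 in log2 units over the 7 probe sets. Their mean was -0.08 ± 0.10 (SD over probe sets, which share the same RNA and are not replicates), and 6 of 7 lay below 0.

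Mbp was read well by only 1 of its 4 probe sets. That probe set, 96311_at on design A, had a log2 signal of 10.87 in the paired pool and 10.96 in the unpaired pool, ranks of 99.5 and 99.6. Its difference was -0.08, or 1.06-fold lower in the paired pool. The others did not pass the filter: 96310_at on design A had 3.68 paired and 3.67 unpaired, and 137621_at and 166476_r_at on design C had 2.13 and 2.26 paired, against 2.14 and 2.33 unpaired. Their ranks lay between 18.7 and 31.3 in the paired pool and between 19.7 and 32.2 in the unpaired pool. Which part or form of the transcript each of them reads was not checked against sequence.

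The surface proteins of the sheath differed little between the pools. Mag 102405_at had a log2 signal of 9.09 in the paired pool and 9.06 in the unpaired pool, and Mag 161846_r_at had 8.25 against 8.20. Both Mag probe sets were thus slightly higher in the paired pool, with differences of 0.04 and 0.06. Mog 103987_at had 7.42 in the paired and 7.49 in the unpaired pool, a difference of -0.06.

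Cnp, an enzyme of the cytoplasmic channels used as a marker of oligodendrocytes, could not be compared. Its probe set 93072_at had a log2 signal of 2.70 in the paired pool and 2.54 in the unpaired pool, at ranks of 12.8 and 9.69 on design A. Both values lay under the floor of 3.28, the 25th percentile of the design, where order carries no meaning. The other sheath genes with a probe set on design A each had at least 1 with a rank above 50. A single low probe set was not particular to Cnp, since Cldn11 161529_r_at had ranks of 10.5 paired and 11.7 unpaired on design A. The reason for the low Cnp signal was not tested.

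Cldn11, the tight junction gene, had a log2 signal of 7.28 in the paired pool and 7.50 in the unpaired pool on 100044_at. The difference was -0.22, or 1.16-fold lower in the paired pool, and 12.1% of the kept probe sets of design A were as low or lower. Its other probe set, 161529_r_at, was under the floor in both pools, at 2.60 and 2.61. Mal 99089_at had 8.20 in each pool, a difference of 0.01.

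Ugt8a, which makes the sheath's galactolipid, gave opposite answers on 2 designs. On design C, 138069_at had a log2 signal of 6.93 in the paired pool and 7.45 in the unpaired pool, at ranks of 95.2 and 97.0. Its difference of -0.51, or 1.42-fold lower in the paired pool, was the largest of any kept member probe set, and 66 of the 5934 kept probe sets of design C lay lower. On design A, 98872_at had 5.28 in the paired and 5.07 in the unpaired pool, a difference of 0.22. It was much dimmer within its design, at ranks of 57.2 paired and 54.3 unpaired. The probe set 169305_i_at, also on design C, had 2.47 against 2.24 and did not pass the filter. The mean of -0.15 over the 2 kept probe sets therefore stands for neither of them. With the signal filter raised to the 75th percentile, or the highest-ranking probe set alone, the gene value was -0.51.

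**Figure D2:**
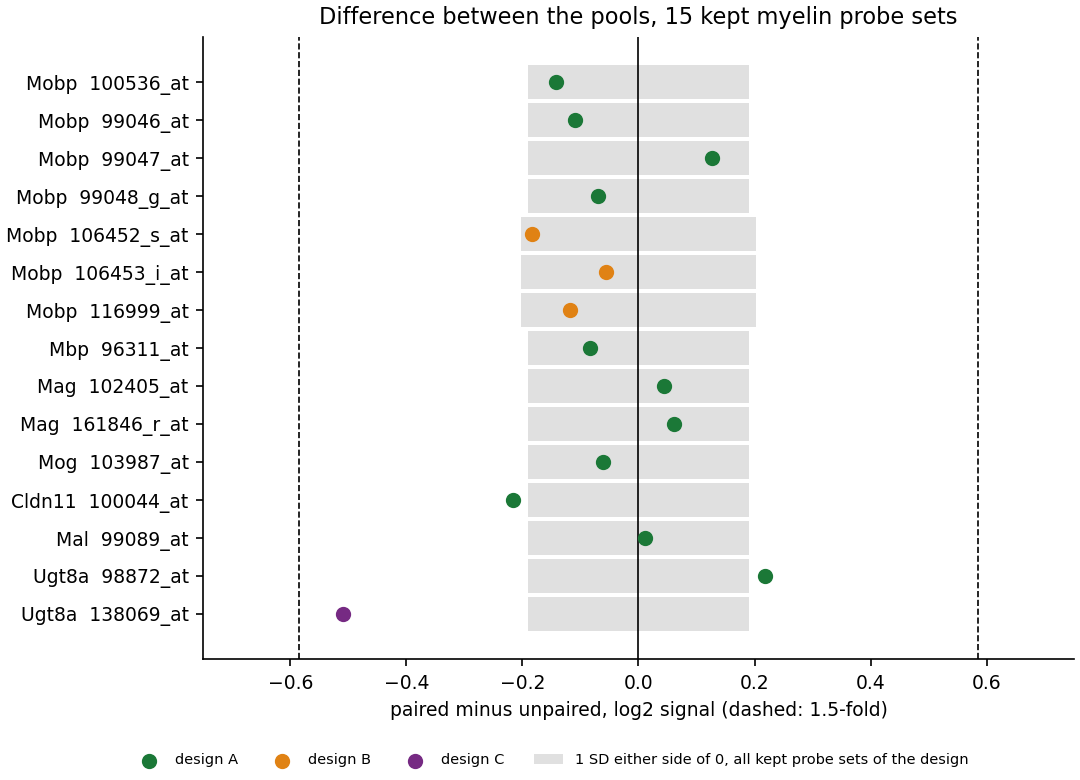
Difference in log2 signal, paired minus unpaired (x axis), of the 15 myelin probe sets above the signal filter (y axis), coloured by design, after scaling within the design. Grey bars reach 1 SD of all kept probe sets of the design either side of 0 and dashed lines mark 1.5-fold; 12 of the 15 points lie within 0.19 of 0 and none passes 1.5-fold.

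The sheath probe sets varied about as much between the pools as probe sets in general. None of the 15 was 1.5-fold or more lower in the paired pool, where 0.332% of the 18351 kept probe sets of all designs were, and none was 1.5-fold or more higher, where 0.349% were, so a count of 0 among 15 is no result about the members. The SD of the difference over all kept probe sets was 0.19, and 12 of the 15 (80%) lay closer to 0 than that, against 71.7% of all kept probe sets and 76.7% of those whose signal reached the 90th percentile. The exceptions were Cldn11 100044_at and both kept Ugt8a probe sets. Pairs of probe sets for the same gene on the same design gave an SD of 0.19 for a single probe set (2015 genes), and 0.21 on different designs (2196 genes), which describes probe and array error and not the spread between pools of mice.

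Of the 15 probe sets, 10 lay below 0, or 66.7%, against 50% of all kept probe sets, a share that the scaling itself sets. The median of the 15 was -0.07, and that of all kept probe sets 0. Mobp supplied 7 of the 15, and without it 4 of 8 lay below 0, with a median of -0.02. Bright probe sets leaned below 0 as a whole: 55.2% of those whose signal reached the 90th percentile of their design did over all designs, and 61.1% on design A. The members at that level numbered 12, with 8 below 0, and on design A 8, with 4 below 0. With loess scaling 10 of the 15 members lay below 0, with a median of -0.04, against 49.8% of all kept probe sets. At the 90th percentile and above, that scaling left 8 of 12 members below 0, against 48.5% of all probe sets there. The part of the lean in the members' values was not tested.

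**Figure D3:**
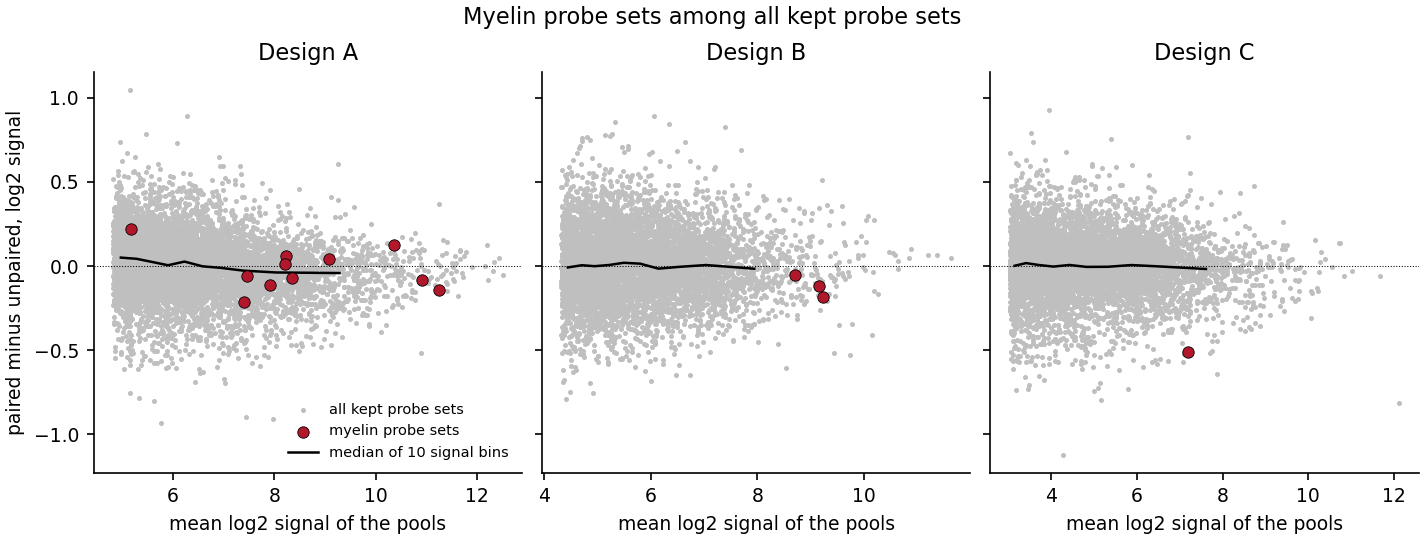
Difference in log2 signal, paired minus unpaired (y axis), against the mean log2 signal of both pools (x axis) for all kept probe sets (grey) of designs A, B and C, with the myelin probe sets in red and the medians of 10 equal bins of kept probe sets by signal as a line. The myelin probe sets lie inside the cloud, 12 of the 15 at its bright end and Ugt8a 98872_at at the dim end of design A, and the line on design A drops below 0 at the bright end, where the median over its probe sets from the 90th percentile of signal up was -0.04.

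Counted as genes, 5 of the 7 measured members were lower in the paired pool, Cldn11, Ugt8a, Mbp, Mobp and Mog, where 51% of all 10579 measured genes were. Mag and Mal were higher, by 0.05 and 0.01. The median over the 7 was -0.08, against -0.0039 over all genes and -0.03 over the 1662 genes with a mean rank of 90 or more. No member was 1.5-fold apart, and 0.388% of all genes were, in either direction.

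Other genes of the sheath and of the cells that make it were compared in 6 lists, beside 51% of all measured genes that were lower. Of the other sheath proteins, 15 of 21 measured genes were lower in the paired pool, with a median of -0.06. Gpm6b, a membrane glycoprotein gene, had -0.23, Pllp, plasmolipin, -0.22, and Ndrg1 -0.21, each with its 2 kept probe sets below 0. Among enzymes of myelin lipids 14 of 22 genes were lower, with a median of -0.06. Agps, which acts in plasmalogen synthesis, had -0.34, Cers2, the synthase of very long chain ceramides, -0.30, and Degs1, a ceramide desaturase, -0.27. Agps, Cers2 and Degs1 rest on 1 kept probe set each, and Agps 110744_at, which did not pass the filter, had 0.11.

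Beside 51% of all measured genes, mature oligodendrocyte genes outside the sheath were lower in 16 of 22 cases, with a median of -0.11. Carns1, carnosine synthase, had -0.46, the cytokine gene Il33 -0.31 and Pdlim2 -0.29. Each rests on 1 kept probe set, and that of Carns1 had ranks of 54.2 paired and 63.7 unpaired. The other Il33 probe set, 113123_r_at, did not pass the filter and had 0.20. Regulators of the lineage were lower in 11 of 14, with a median of -0.15. Furthest from 0 were Hdac2, a histone deacetylase of many cell types, at -0.58, and Nkx6-2, a transcription factor of myelinating cells, at -0.47. Hdac2 and Nkx6-2 rest on 1 kept probe set each. The RNA-binding gene Qk had -0.37. The higher regulators were Olig2 at 0.31 on 2 kept probe sets, Hdac1 at 0.23 on 1 and Tcf7l2 at 0.14 on 2. Precursor genes were evenly split, 4 lower and 4 higher, with a median of 0.01 that lay below 0 without scaling, under quantile and loess scaling, on design A alone, with the highest-ranking probe set per gene and without suffixed probe sets. The precursor genes furthest from 0 were all lower, Ptprz1 at -0.28, Gpr17 at -0.23 and Cspg4 at -0.14. Gpr17 and Cspg4 rest on 1 kept probe set each. The 4 higher ones were Matn4 at 0.08, Pdgfra at 0.07, Cspg5 at 0.06 and Bcas1 at 0.05.

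Axonal partners of the sheath at the node and paranode gave 12 lower genes of 15 and a median of -0.09. Cntnap1, the axonal paranode protein, had -0.45 on its 1 kept probe set. Its other probe set, 94626_at, did not pass the filter and had -0.03. Against these, Epb41l3 had 0.34 and the potassium channel gene Kcna2 0.26, the mean of 0.46 and 0.06. Over the 6 lists 72 of 102 measured genes were lower, or 70.6%, with a median of -0.08. Of all measured genes 51% were lower, and of those with a mean rank of 90 or more, 58.1%. The lists also hold dimmer genes, such as Hdac2 at ranks of 59.2 paired and 68.6 unpaired. None of the 102 reached 1.5-fold, where 0.388% of all measured genes did in either direction, so this count is no result about the lists.

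**Figure D4:**
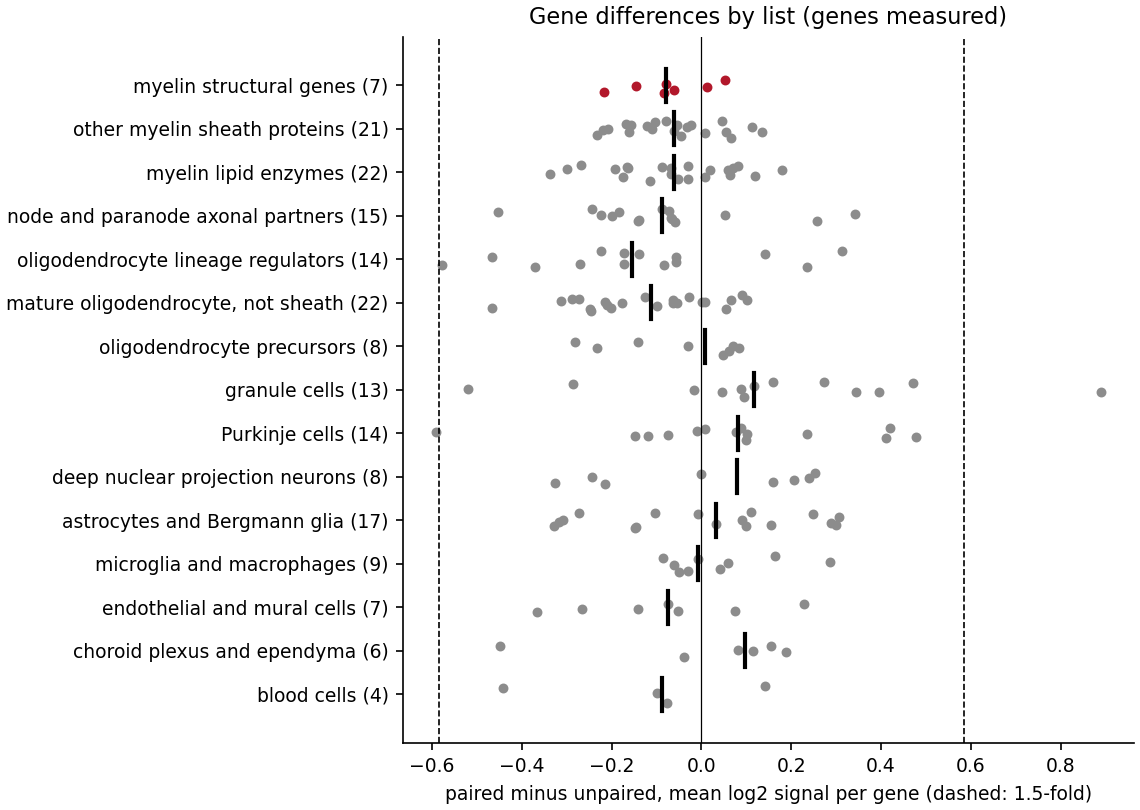
Difference per gene in mean log2 signal, paired minus unpaired (x axis), for the 7 measured myelin structural genes (red) and 14 other lists (grey; measured genes in brackets), with the median of each list as a black bar and dashed lines at 1.5-fold. Medians of the sheath, lipid, node, regulator and mature oligodendrocyte lists lie between -0.15 and -0.06, and those of granule and Purkinje cells at 0.12 and 0.08.

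Markers of other cells in the dissected block were counted in the same way, beside 51% of all measured genes that were lower in the paired pool. Granule cell genes were higher in the paired pool in 10 of 13 cases, with a median of 0.12 (SD over genes 0.35). Purkinje cell genes were higher in 9 of 14, with a median of 0.08 (SD 0.28). In each list 1 gene passed 1.5-fold, higher in the granule and lower in the Purkinje list. Of all measured genes 0.388% did, in either direction. The linear signal summed over the kept probe sets of design A was 7640 in the paired and 7906 in the unpaired pool for the members (11 probe sets), and 1212 against 1075 for the granule cell list (8 probe sets). For the Purkinje list it was 7278 against 7493 (13 probe sets), a direction opposite to its median. The part of the cell mixture in the myelin values was not tested.

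Astrocyte genes were higher in 9 of 17, with a median of 0.03 that lay below 0 on design A alone (-0.0067) and design C alone (-0.29). Microglial genes were higher in 4 of 9, with a median of -0.01. That median lay above 0 under quantile and loess scaling, with signal from the 75th percentile up, on design C alone and without suffixed probe sets. Endothelial and mural genes were lower in 5 of 7 (median -0.07) and blood genes in 3 of 4 (median -0.09), and choroid plexus and ependymal genes were higher in 4 of 6 (median 0.10). Genes of the projection neurons were split 4 and 4, with a median of 0.08 that lay below 0 on designs A and C alone, with signal from the 75th percentile up, with the highest-ranking probe set per gene and without suffixed probe sets. Schwann cells of nerve roots were poorly covered: Pmp22 had 7.14 in the paired and 7.38 in the unpaired pool on 102395_at, and Dhh had a mean difference of 0.06. Pmp22 161442_at did not pass the filter, with its unpaired signal under the floor, and had 0.32. The Dhh mean is over 4 kept probe sets, all with a letter suffix. Dhh 99861_at, without a suffix, did not pass and had -0.06.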

How the data were processed

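Biotin-labelled cRNA (15 ug per the labels' protocols) of pooled tissue was measured on 1-colour arrays, 1 for each training group and design. The deposited values are taken here to be log2 signals, with the base inferred from their range. How they were summarized, background-corrected and normalized, and on which genome build, is not given in the sources used here. Of 36701 probe sets without 198 controls, 29131 had a single symbol, 724 had several and 6846 none. Symbols were updated by gene identifier with RefSeq GRCm38.p6 (29044 matched). Within a design the paired array was shifted to a median difference of 0 over the brighter probe sets, from the median signal up (shifts of -0.010, -0.008 and -0.007 were removed). Signals under the 25th percentile were set to it, and probe sets at or above the median were kept. A gene's value was the mean over its kept probe sets.

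Named genes were the members, the Schwann cell genes Pmp22 and Dhh, and 3 genes per list of sheath, node and oligodendrocyte genes. These 3 had the largest absolute difference of their list. The higher genes of the precursor and regulator lists are named too. Those of other cell types are given as counts. Some genes of this rule are not reported here. Enpp2 and Nefh stood in 2 lists each. Members and lists were chosen with earlier results of these data known. Scaling was tested on simulated data. Python 3.11.15, pandas 2.3.3 and statsmodels 0.14.6 were used.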

Additional observations from a re-analysis of the deposited data

How the results depend on the processing

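No paired analysis was possible because each training group had 1 array per design and the result comes from no test. The alternatives were no, quantile or loess (span 0.3) scaling, no floor or one at the median signal, dropping the signal filter or raising it to the 75th percentile, each design alone, the highest-ranking probe set per gene, no probe sets with a letter suffix, letting a probe set with several symbols count for every one of them, and leaving out each member gene in turn. Over all of them the median of the member probe sets ran from -0.51 to -0.02, that of the member genes from -0.51 to -0.03, and the share of member probe sets below 0 from 50% to 100%. The lowest medians and highest shares came from few probe sets: on design C alone the only kept one, of Ugt8a, gave both medians of -0.51 and a share of 100%, and on design B alone all 3, of Mobp, lay below 0 (100%). At the other end, leaving out Mobp gave a probe-set median of -0.02 and a share of 50%, and dropping the signal filter gave a gene median of -0.03 over 8 genes and a share of 52.4% of 21 probe sets, some of them set to the floor. Of 79 gene values under an alternative 1 turned sign, Ugt8a on design A alone (0.22), and of 75 probe-set values under another scaling or floor none did. Many of these comparisons could not change a value. The other floors left every kept member probe set as it was, and no member probe set had several symbols. Mbp, Mog, Cldn11 and Mal each had 1 kept probe set, unsuffixed and on design A. Their values were thus fixed on design A alone, with the highest-ranking probe set and without suffixed ones. Of 170 list medians 20 turned sign; among them were lipid enzymes (0.03 on design B alone), node partners (0.0084 on design C alone) and astrocytes (-0.29 on design C alone). Signals near the floor limit what can be said of Cnp and of the dim Mbp probe sets.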

Other observations

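Epb41l3, a linker between membrane proteins and the cytoskeleton beside the node, had the highest gene difference of the axonal partners, 0.34. Kcna2 was also higher on both kept probe sets, by 0.46 and 0.06. All of the 4 kept Epb41l3 probe sets were higher in the paired pool, 3 on design B and 1 on design C. The brightest, 117012_g_at, had a log2 signal of 8.67 in the paired and 8.35 in the unpaired pool, and 117011_at had 8.36 against 7.97. Probe set 115369_at had 8.13 against 7.81, and 130667_at on design C had 6.05 against 5.75. The differences ran from 0.30 to 0.40, and a suffixed probe set on design B, at 2.10 against 2.33, did not pass the filter.

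Qk, whose protein binds the transcripts of Mbp and other myelin genes, was lower in the paired pool on both kept probe sets of design A. Its probe set 160726_at had a log2 signal of 6.89 in the paired and 7.25 in the unpaired pool, and 95096_at had 5.96 against 6.36. On design B neither of its probe sets passed the filter, and their differences were 0.19 and -0.43.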
